A study of Mus musculus with 5 samples.

Results

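The genes described here encode respiratory complex I, the NADH:ubiquinone oxidoreductase of the inner mitochondrial membrane, and its Ndufaf assembly factors. Members were all genes whose platform symbol starts with Nduf, counted over probe sets with exactly 1 symbol, which gave 44 genes, 36 subunits and 8 assembly factors, of 18193 such genes on the array. The data are 5 single-colour Affymetrix arrays of germinal centre B cells sorted from spleen, from C57BL/6 mice aged 12 weeks that had received sheep red blood cells (SRBC) 7 days earlier. The 2 REL arrays hold eGFP+ cells of relfl/flCg1-Cre mice, which combine floxed copies of Rel (encoding c-Rel, a subunit of NF-kB) with Cg1-Cre. The 3 WT arrays hold cells of littermates with Cg1-Cre and no floxed Rel alleles, given as eGFP− in the series' design text. Both groups thus carry Cre, driven from the immunoglobulin gamma 1 constant region locus, which is transcribed in activated B cells. Whether the arrays represent different animals is not given in the labels. The p-values therefore reflect sample-to-sample spread that could be technical.

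Complex I is the entry point of electrons from NADH into the respiratory chain. Its peripheral arm consists of an N module, which oxidises NADH through flavin mononucleotide and iron-sulfur clusters, and a Q module, which passes the electrons to ubiquinone. The membrane arm pumps protons and is built around subunits encoded in mitochondrial DNA. Subunits that carry the catalysis are called core subunits, and the others, called supernumerary, stabilise the complex. Assembly factors hold or modify intermediates and leave before the complex is complete. Germinal centre B cells divide rapidly and are known for active mitochondrial respiration.

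Complex I transcripts had somewhat lower signals in REL cells than in WT cells, mostly on 1 of the 2 REL arrays, and no member passed the test. Relative to the median of all genes, the lower subunit median rested on REL 1. It was 0.00 without that array and −0.27 without REL 2. Of the 44 genes 43 were bright enough to be tested. Ndufb4 was left out, because its single-symbol probe set had signals of 26.3 and 8.75 in REL and 17.8, 4.80 and 19.9 in WT. Signals are MAS5 values on a linear scale, and differences are REL minus WT on the log2(signal + 16) scale. With limma, 0 of the 43 genes were called lower and 0 higher at an adjusted p under 0.05, where 0% and 0.00828% of the 12082 genes tested were called. At an unadjusted p under 0.05 there were 7 members lower and 0 higher, where 4.99% and 3.24% of all genes were. For 14 members the 2 REL signals were below all 3 WT signals, 32.6% of the members, where 14.3% of all genes did. Both were above all WT signals for 0 members, where 9.53% of all genes did. Ndufa5 had the smallest adjusted p of the members (0.303), and the others ran up to 0.979.

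Most subunits had differences below 0. Of the 35 subunits tested 28 had a difference below 0, and of the 8 assembly factors 5 did, where 56.8% of all genes lay below 0. After median centring of the arrays 22 of the 35 subunits lay below 0, 62.9%, where 40.6% of all genes did. Relative to the median of all genes, which was at −0.07, 27 subunits and 5 assembly factors lay below it, where by definition 50% of all genes do. The median difference was −0.22 for the subunits and −0.20 for the assembly factors. Differences ran from −0.91 to 0.21 among subunits and from −1.08 to 0.30 among assembly factors. The median SE was 0.21 for the 43 members, assembly factors included, and 0.48 for all genes.

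**Figure D1:**
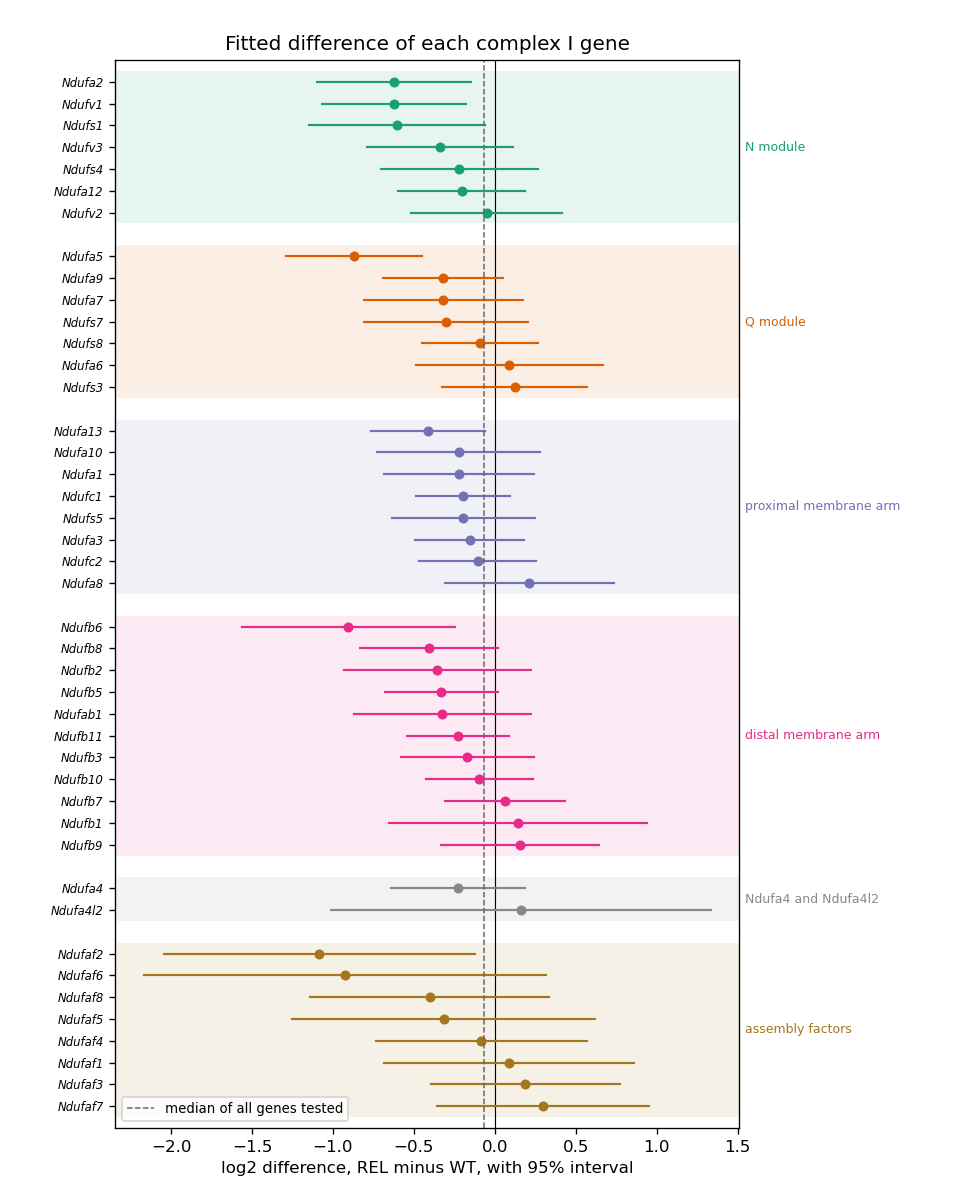
Each row is 1 complex I gene, with its fitted difference (point) and 95% interval (line) on the log2 scale, REL minus WT; colours mark the part of the complex and the dashed line is the median of all genes tested (−0.07). The points of the 35 subunits lie between −0.91 and 0.21, and most intervals cross 0.

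The 2 REL arrays differed from each other in these genes. Among the subunits the median deviation from the WT mean was −0.29 on REL 1 and −0.09 on REL 2, against −0.09, 0.10 and 0.05 on WT 1, 2 and 3. REL 2 thus stood beside WT 1. REL 1 was the lowest of the 5 arrays for 25 of the 35 subunits, where it was the lowest for 23.6% of all genes. REL 2 was the lowest for 3 of them, where it was for 28.1% of all genes. REL 1 lay below REL 2 for 30 subunits and 6 assembly factors, where it did for 46.6% of all genes. REL 1 lay below every WT array for 27 subunits and above every one for 0, where 31.2% and 26.5% of all genes did. REL 2 lay below every WT array for 13 and above every one for 6, where 34.7% and 24.6% of all genes did. Without REL 1 the subunit median was −0.09, with 24 of 35 below 0, and relative to the median of all genes it was 0.00. Without REL 2 it was −0.30, with 33 of 34 below 0, and −0.27 relative to all genes, against −0.15 with both arrays.

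**Figure D2:**
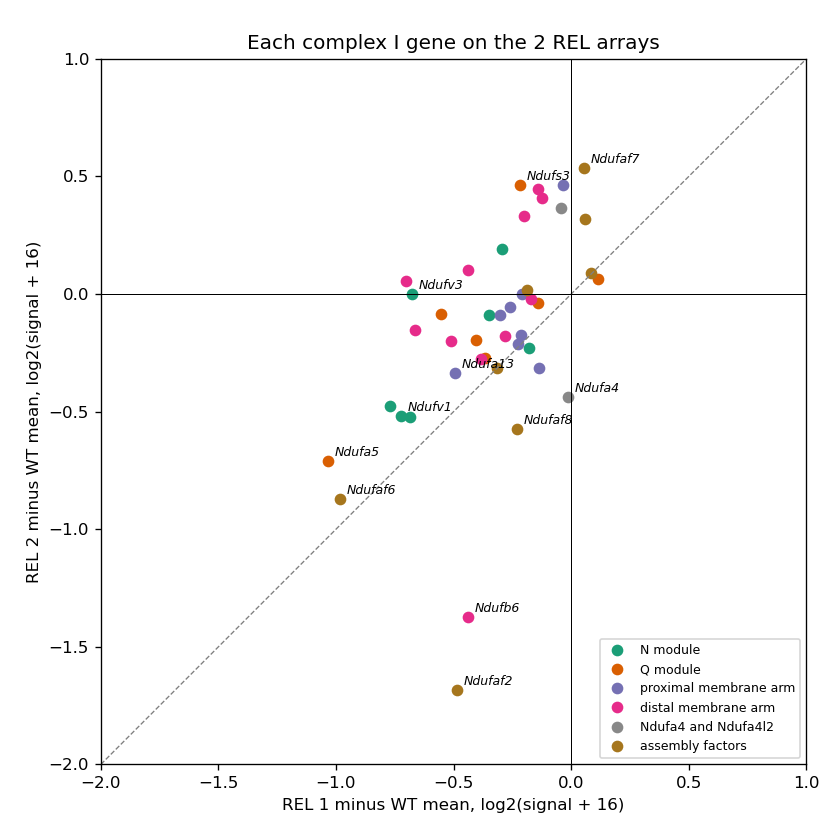
Each point is 1 complex I gene, placed by its log2(signal + 16) minus the WT mean on REL 1 (x axis) and on REL 2 (y axis); colours mark the part of the complex and points above the dashed line were lower on REL 1. Of the 43 genes 36 lie above the line, and Ndufb6 and Ndufaf2 lie far below it.

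**Figure D3:**
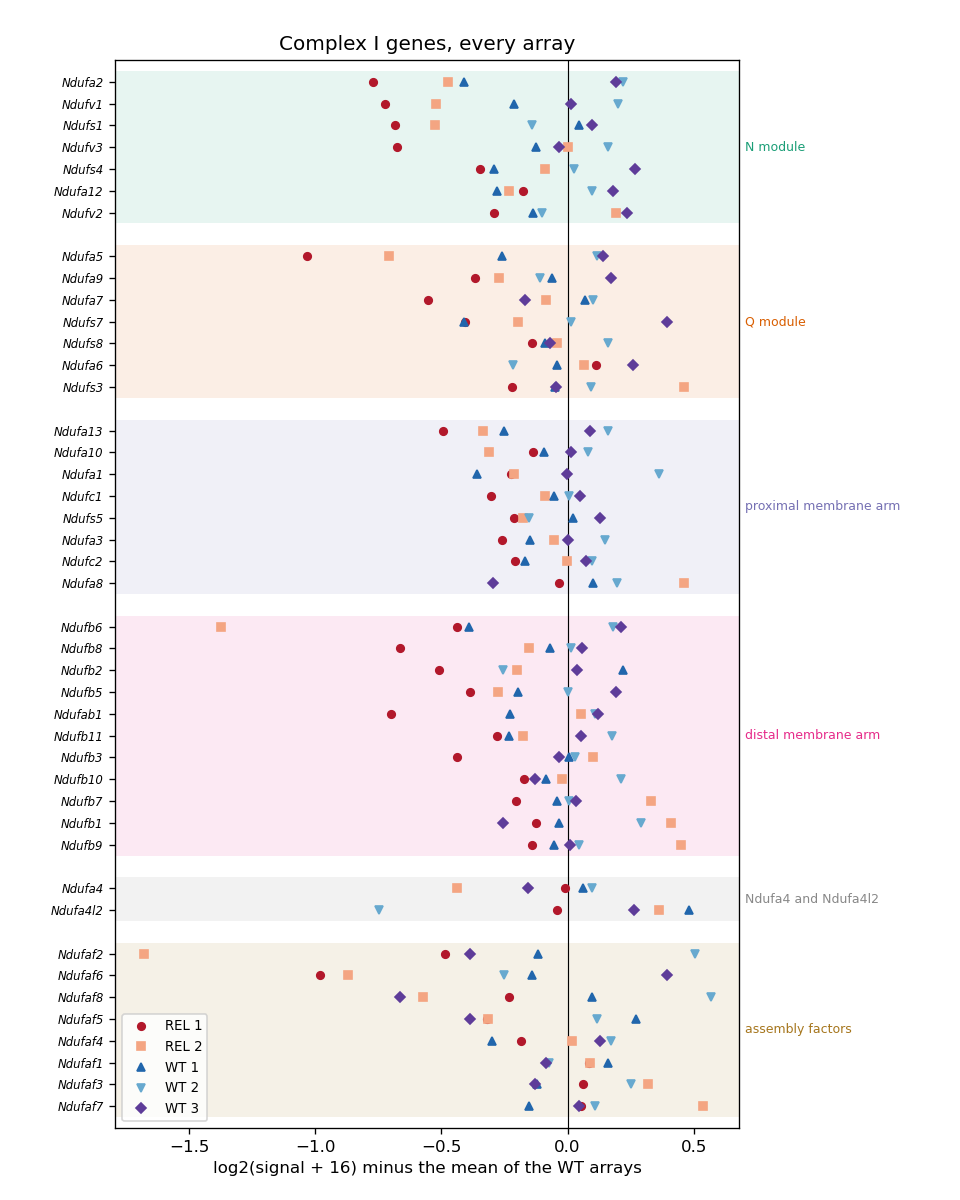
Each row is 1 complex I gene and each symbol 1 array, given as log2(signal + 16) minus the mean of the 3 WT arrays. REL 1 (dark red) is the leftmost symbol for 26 of the 43 genes, and REL 2 (light red) for 4.

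The N module held 3 of the 7 members with an unadjusted p under 0.05. All 7 of its genes tested were below 0, where 56.8% of all genes were. In 3 of them the REL signals were below all WT signals, which held for 14.3% of all genes. Ndufv1, the core subunit that binds NADH and flavin mononucleotide, had signals of 2649 and 3056 in REL and 3791, 5041 and 4426 in WT. The groups did not overlap, and its other 2 probe sets pointed the same way. Its difference was −0.62 (SE 0.20, limma adjusted p = 0.436), a REL over WT ratio of 0.649. Ndufs1, the largest core subunit, which carries several iron-sulfur clusters, had signals of 1305 and 1458 in REL and 2171, 1905 and 2255 in WT. The REL signals lay clearly apart from the WT signals, and the difference was −0.60 (SE 0.24, limma adjusted p = 0.55). Ndufa2, a small supernumerary subunit with a thioredoxin-like fold, had signals of 4621 and 5674 in REL and 5933, 9209 and 9015 in WT. REL 2 and WT 1 were close to each other, and the difference was −0.62 (SE 0.21, limma adjusted p = 0.458). For these 3 genes the difference was similar without REL 1 (−0.52, −0.53 and −0.48) and without REL 2 (−0.73, −0.68 and −0.77).

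The other N module genes had overlapping groups. Ndufv2, the core subunit with a further iron-sulfur cluster, had signals of 3764 and 5278 in REL and 4195, 4304 and 5439 in WT, and its difference was −0.05 (SE 0.21, limma adjusted p = 0.979). It was 0.19 without REL 1 and −0.29 without REL 2. Ndufv3 had signals of 5193 and 8315 in REL and 7613, 9305 and 8111 in WT. REL 1 was the lowest array there and REL 2 lay inside the WT range, and the difference of −0.34 was 0.00 without REL 1. Ndufs4, a supernumerary subunit whose loss in mice causes a Leigh-like brain disease, was at −0.22 (SE 0.22), and Ndufa12, which takes the place of the assembly factor Ndufaf2, at −0.20 (SE 0.18).

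In the Q module 5 of 7 genes lay below 0, where 56.8% of all genes did, and the lowest was Ndufa5. This supernumerary subunit had signals of 3452 and 4324 in REL and 5907, 7686 and 7814 in WT. Both REL signals were well below the lowest WT signal, and its second probe set gave −0.58. The difference was −0.87 (SE 0.19, 95% interval −1.29 to −0.45, limma adjusted p = 0.303), a ratio of 0.547, and it was −0.71 without REL 1 and −1.03 without REL 2. The 3 core Q subunits tested had differences nearer to 0. Ndufs7, which carries the iron-sulfur cluster next to ubiquinone, had signals of 4680 and 5414 in REL and 4670, 6265 and 8167 in WT. The groups overlapped, its difference was −0.30 (SE 0.23, limma adjusted p = 0.789), and its second probe set pointed the other way (0.13). Ndufs8, an iron-sulfur protein that hands electrons towards Ndufs7, had signals of 5412 and 5805 in REL and 5607, 6672 and 5689 in WT. These were close together, and the difference was −0.09 (SE 0.16, limma adjusted p = 0.932). Ndufs3, a scaffold subunit of the early Q module, had signals of 5503 and 8838 in REL and 6197, 6833 and 6215 in WT. REL 1 was the lowest array and REL 2 the highest, so that its difference of 0.12 (SE 0.20, limma adjusted p = 0.927) became 0.46 without REL 1 and −0.22 without REL 2. Ndufa9, a subunit with a nucleotide-binding reductase fold, was at −0.32 (SE 0.17) with both REL arrays below every WT array. Ndufa7 was at −0.32 (SE 0.22) and Ndufa6, a subunit that binds acyl carrier protein, at 0.09 (SE 0.26).

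**Figure D4:**
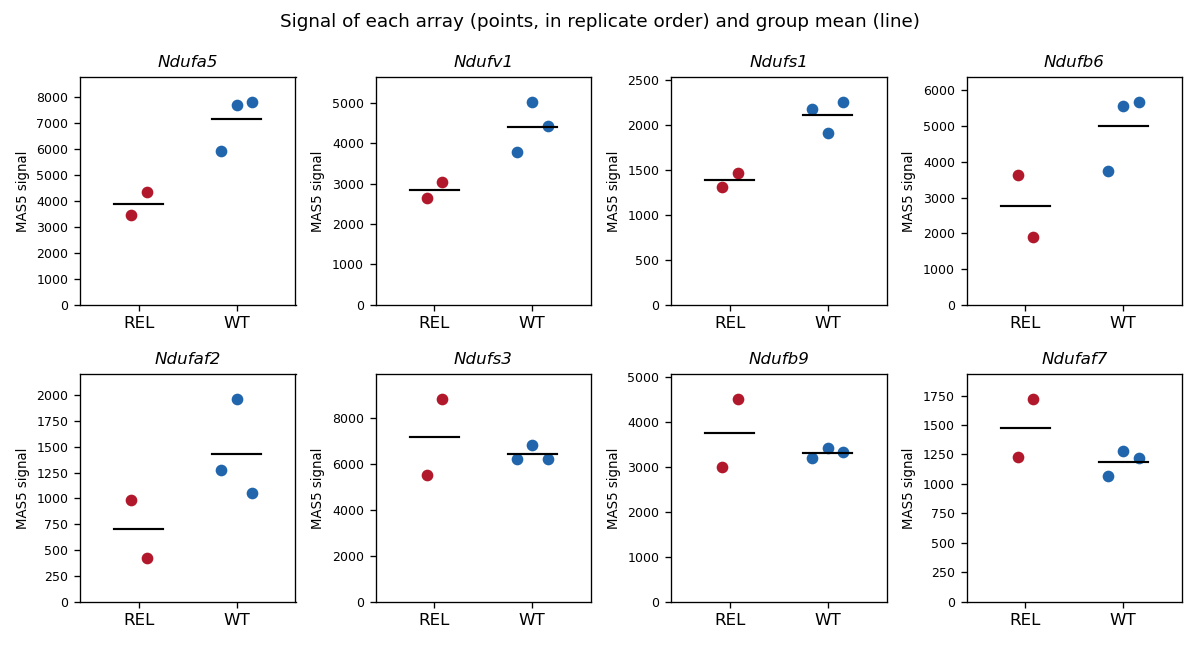
MAS5 signal (linear scale from 0) of 8 members, with 1 point per array, REL left and WT right, and a line at the group mean. Ndufa5, Ndufv1 and Ndufs1 show separate groups, while in Ndufs3 and Ndufb9 REL 2 lies above and REL 1 below all WT arrays.

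The proximal membrane arm had 7 of 8 genes below 0, where 56.8% of all genes were. In 4 the REL signals were below all WT signals, which held for 14.3% of all genes. Ndufa13, also known as GRIM-19, a subunit at the base of the membrane arm, had signals of 7298 and 8161 in REL and 8643, 11511 and 10951 in WT. The groups did not overlap, and the difference was −0.41 (SE 0.16, limma adjusted p = 0.518). Ndufa10, which has a nucleoside kinase fold, was at −0.22 (SE 0.23), Ndufc1 at −0.20 (SE 0.13) and Ndufs5 at −0.19 (SE 0.20), each with separate groups and small distances between them. Ndufa1 (−0.22), Ndufa3 (−0.16) and Ndufc2 (−0.11) overlapped, and 3 of the 4 probe sets of Ndufc2 lay above 0. Ndufa8 had signals of 3119 and 4410 in REL and 3428, 3663 and 2596 in WT. REL 2 was the highest array and REL 1 lay inside the WT range, and its difference of 0.21 (SE 0.23, limma adjusted p = 0.869) was the highest among the subunits.

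In the distal membrane arm 8 of 11 genes lay below 0, where 56.8% of all genes did. Without REL 1 the count was 6 of 11, 54.5%, where 56.7% of all genes lay below 0. Ndufb6 stood apart from the rest. Ndufb6 had signals of 3622 and 1885 in REL and 3742, 5560 and 5690 in WT. REL 2 was by far the lowest array here, while REL 1 was just under WT 1. The difference was −0.91 (SE 0.29, limma adjusted p = 0.436), −1.37 without REL 1 and −0.44 without REL 2. Its second probe set gave −0.76 with signals of 1307 and 1474 in REL and 2301, 2750 and 2067 in WT. On that probe set both REL arrays were below all WT arrays, and REL 1 was the lower of them. Ndufb8 had signals of 3520 and 5030 in REL and 5319, 5638 and 5820 in WT. Its groups did not overlap, but REL 2 was near WT 1, and the difference was −0.41 (SE 0.19, limma adjusted p = 0.629). Ndufb5 had signals of 6607 and 7122 in REL and 7536, 8653 and 9871 in WT. All REL signals were below all WT signals, and the difference was −0.33 (SE 0.16, limma adjusted p = 0.63).

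Ndufb2 (−0.35), Ndufb11 (−0.23), Ndufb3 (−0.17) and Ndufb10 (−0.10) had overlapping groups. Ndufab1, the mitochondrial acyl carrier protein, which also serves fatty acid and lipoic acid synthesis, was at −0.32 (SE 0.24), with signals of 2702 and 4573 in REL and 3757, 4746 and 4787 in WT. REL 1 alone was low, and 2 of its 5 probe sets lay above 0. The genes above 0 in the distal arm had REL 2 as the highest array. Ndufb9, a subunit of the LYR family, which bind acyl carrier protein, had signals of 3002 and 4527 in REL and 3193, 3417 and 3333 in WT. REL 1 was below and REL 2 above all WT arrays, and the difference was 0.15 (SE 0.22, limma adjusted p = 0.914). Ndufb1 had signals of 767 and 1118 in REL and 817, 1028 and 699 in WT, with a difference of 0.14 (SE 0.36, limma adjusted p = 0.957). Ndufb7 was at 0.06 (SE 0.17), 0.33 without REL 1 and −0.20 without REL 2.

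Ndufa4 and Ndufa4l2 are counted by name, although the Ndufa4 protein is now known as a subunit of cytochrome c oxidase. Ndufa4 had signals of 5570 and 4136 in REL and 5859, 6004 and 5034 in WT, with a difference of −0.23 (SE 0.19). Ndufa4l2, a related gene known as hypoxia-induced, was dim on every array, at 22.8 and 35.4 in REL and 39.8, 7.82 and 31.9 in WT. Without these 2 genes 27 of 33 subunits lay below 0 and the median was unchanged at −0.22.

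The promoters of 4 members with both REL arrays below every WT array are shown as examples of the sequences found at these genes. They were taken from RefSeq (build GRCm38.p6), on the gene's own strand, from 250 bases before to 50 bases after the annotated start. Capitals mark matches to motifs searched on both strands: the NRF1 consensus, CCGGAAG for ETS factors such as GABP, AAGATGGC for YY1, AAGGTCA for ERR receptors, CACGTG for E-box factors such as MYC and a strict NF-kB consensus. No match overlapped another in these windows. Each of the 4 holds a match, which was not so for all such members. The windows of Ndufa10, Ndufa13, Ndufb5 and Ndufaf2, which also had both REL arrays below every WT array, hold none of these motifs. The windows are chr19:4012706-4013005 on the minus strand for Ndufv1 with an E-box, chr6:24527477-24527776 on the minus strand for Ndufa5 with an NRF1 match, chr4:40279372-40279671 on the minus strand for Ndufb6 with an ETS match and chr19:44555393-44555692 on the minus strand for Ndufb8 with a YY1 match just after the start.
Ndufv1: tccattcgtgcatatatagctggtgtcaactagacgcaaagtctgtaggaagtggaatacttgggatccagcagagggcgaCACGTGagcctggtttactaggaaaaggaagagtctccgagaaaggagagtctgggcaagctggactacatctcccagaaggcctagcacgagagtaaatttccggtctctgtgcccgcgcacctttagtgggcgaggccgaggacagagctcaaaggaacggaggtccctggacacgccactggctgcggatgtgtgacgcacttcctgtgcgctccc
Ndufa5: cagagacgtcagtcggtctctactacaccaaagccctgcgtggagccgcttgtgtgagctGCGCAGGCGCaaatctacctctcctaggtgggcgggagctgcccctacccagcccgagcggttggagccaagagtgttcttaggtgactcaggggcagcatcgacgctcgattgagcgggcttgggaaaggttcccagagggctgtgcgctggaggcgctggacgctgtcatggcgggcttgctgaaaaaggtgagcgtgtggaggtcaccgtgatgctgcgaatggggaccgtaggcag
Ndufb6: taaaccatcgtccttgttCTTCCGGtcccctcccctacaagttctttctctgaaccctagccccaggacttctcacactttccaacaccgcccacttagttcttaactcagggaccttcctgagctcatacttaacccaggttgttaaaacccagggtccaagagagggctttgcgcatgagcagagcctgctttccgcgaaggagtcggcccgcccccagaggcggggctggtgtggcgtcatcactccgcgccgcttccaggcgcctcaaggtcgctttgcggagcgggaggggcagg
Ndufb8: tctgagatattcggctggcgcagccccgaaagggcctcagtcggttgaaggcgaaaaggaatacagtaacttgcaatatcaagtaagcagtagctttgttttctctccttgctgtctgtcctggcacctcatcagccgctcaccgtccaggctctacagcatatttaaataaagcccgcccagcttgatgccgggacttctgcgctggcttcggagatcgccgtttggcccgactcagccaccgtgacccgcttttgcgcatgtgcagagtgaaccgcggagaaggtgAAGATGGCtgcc

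NRF1, GABP, YY1 and ERR are known as regulators of nuclear genes for the respiratory chain. Of the 44 members 39 matched the promoter table, with 41 windows, since some genes have more than 1 start. The NRF1 consensus occurred in 8 of these windows, 2 of them overlapping windows of Ndufa5 that hold the same site. That is 19.5% of the windows, against 4.60% of all 32851 windows. Those for YY1 occurred in 7, 17.1%, against 2.75% of all. The ETS letters occurred in 6 windows (14.6% against 8.86%), the ERR letters in 3 (7.32% against 4.72%) and the E-box in 3 (7.32% against 7.15%). Of the E-box windows 2 are overlapping windows of Ndufa7, so that 2 genes carried it. A strict NF-kB consensus occurred in 0 of the 41 windows and in 1.63% of all windows. A looser NF-kB pattern, with the bases between its ends left free, occurred in 25 of the 41, 61.0%, against 50.8% of all, and in each of the 4 windows printed above, where it is not capitalised. The NRF1 genes included Ndufa5 (−0.87) as well as Ndufa8 (0.21), and the YY1 genes Ndufb8 (−0.41) as well as Ndufa3 (−0.16). The ETS genes included Ndufb6 (−0.91) as well as Ndufs3 (0.12).

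Among the assembly factors Ndufaf2 and Ndufaf6 were the lowest, and the others lay nearer to 0 or above it. Ndufaf2, known from human cells to help attach the N module, had signals of 981 and 420 in REL and 1271, 1966 and 1054 in WT. The groups did not overlap, but REL 1 was just below WT 3 while REL 2 was far lower. The difference was −1.08 (SE 0.43, limma adjusted p = 0.544), −1.68 without REL 1 and −0.49 without REL 2. Ndufaf6, needed in human cells for the early membrane part, had signals of 96.5 and 106 in REL and 186, 171 and 277 in WT. Both REL arrays were low to a similar extent in this dim gene, and the difference was −0.93 (SE 0.56, limma adjusted p = 0.72).

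The factors that modify or hold the Q module did not share 1 direction. Ndufaf5, which in human cells hydroxylates Ndufs7, had signals of 467 and 467 in REL and 710, 637 and 443 in WT, and its difference was −0.32 (SE 0.42, limma adjusted p = 0.906). Its partner Ndufaf8 had signals of 2612 and 2059 in REL and 3282, 4562 and 1934 in WT, with a difference of −0.40 (SE 0.33, limma adjusted p = 0.814). The WT arrays alone spanned the REL values in both genes, and the second probe set of Ndufaf8 pointed the other way (0.37). Ndufaf3 and Ndufaf4 are partners that bind the early Q module. Ndufaf3 had signals of 1699 and 2038 in REL and 1496, 1944 and 1489 in WT, with a difference of 0.19 (SE 0.26, limma adjusted p = 0.911). Ndufaf4 had signals of 1174 and 1356 in REL and 1083, 1509 and 1464 in WT, with a difference of −0.08 (SE 0.29, limma adjusted p = 0.971). Ndufaf7, known from human cells as a protein methyltransferase of complex I assembly, was the highest of all members. Its signals were 1231 and 1725 in REL and 1064, 1279 and 1221 in WT, and the difference was 0.30 (SE 0.29, limma adjusted p = 0.849). REL 2 alone lay above the WT range. Ndufaf1, part of the assembly complex of the proximal membrane arm, had signals of 777 and 780 in REL and 820, 694 and 688 in WT. These overlapped fully, and the difference was 0.09 (SE 0.35, limma adjusted p = 0.978).

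On the arrays as a whole the assembly factors had median deviations of −0.21 and −0.15 on REL 1 and REL 2 and −0.12, 0.14 and −0.11 on WT 1, 2 and 3. Their median difference of −0.20 became −0.06 without WT 2. REL 1 was the lowest array for 1 of the 8, in contrast to 25 of 35 subunits, a contrast that was not tested because members are not replicates.

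**Figure D5:**
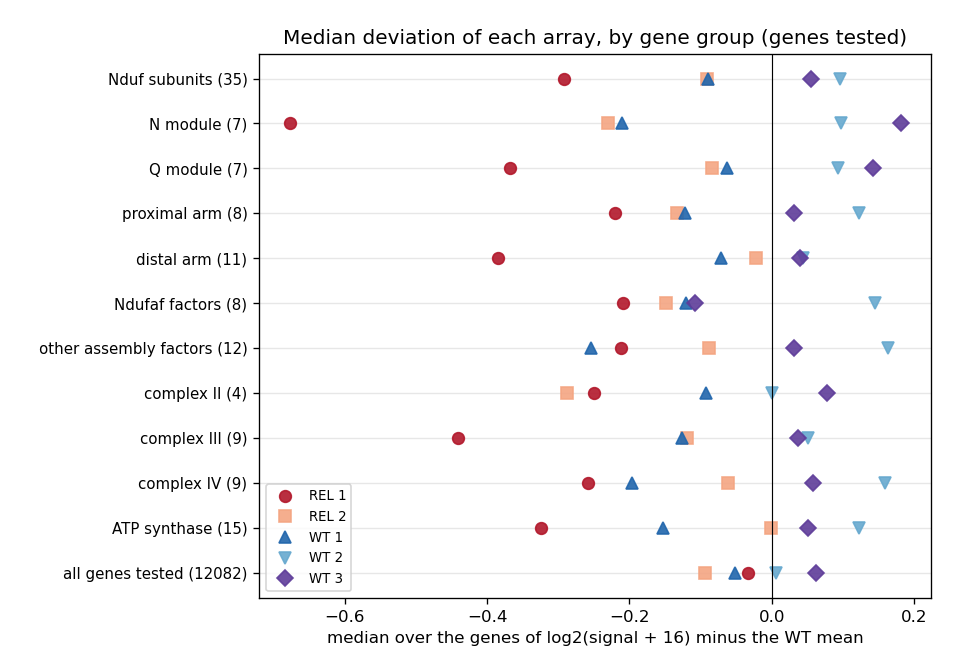
Rows are gene groups with the number of genes tested in parentheses, and each symbol is the median over those genes of log2(signal + 16) minus the WT mean on 1 array. REL 1 (dark red) lies at −0.29 for the Nduf subunits and at −0.03 for all genes, while REL 2 (light red) lies at −0.09 in both.

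Complex I genes outside the Nduf names gave a mixed picture. ND5, the mitochondrially encoded proton-pumping subunit and the single one of its kind tested, had signals of 9807 and 8613 in REL and 8739, 12108 and 10717 in WT. The groups overlapped, with a difference of −0.18 (SE 0.16, limma adjusted p = 0.82). Of 12 other assembly factors tested 8 lay below 0, where 56.8% of all genes did, and 0 were called in either direction. Dmac2, a factor for the distal membrane arm, had signals of 1471 and 1149 in REL and 414, 747 and 730 in WT. It was higher on both REL arrays, by 1.07 (SE 0.39, limma adjusted p = 0.486). Tmem126b, a partner of Ndufaf1, had signals of 96.1 and 17.2 in REL and 113, 310 and 182 in WT, and its difference was −1.73 (SE 0.70, limma adjusted p = 0.556). Tmem70, which serves the assembly of both ATP synthase and complex I, was at −0.48 (SE 0.36).

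In complexes III and IV and in ATP synthase the median was likewise lower on REL 1 than on REL 2. REL 1 and REL 2 stood at −0.44 and −0.12 over 9 complex III genes, at −0.26 and −0.06 over 9 complex IV genes and at −0.32 and 0.00 over 15 ATP synthase genes. Over the 4 complex II genes the medians were −0.25 and −0.29, although REL 1 was below REL 2 for 3 of the 4. None of these genes was called, Cyc1 (−0.87, SE 0.25) and Sdha (−0.59, SE 0.18) having the smallest p. Among 10 regulators of respiratory genes 4 lay below 0, where 56.8% of all genes did. The 6 above 0 included Gabpa (0.69, SE 0.34), Nrf1 (0.57, SE 0.38) and Myc (0.80, SE 0.58), with 0 called.

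Some features of the samples moved with the groups beside these results: the Rel signal, the summed macrophage and erythroid markers and the 18S ribosomal RNA signals. The other marker sums and the Actb ratio overlapped between the groups. Single genes within those sums did not. Sdc1 (42.6 and 42.4 in REL, 125 to 455 in WT), Rgs13 (4514 and 3321, 4960 to 6058) and the dim Ltf were lower in REL. Xbp1 was higher (2469 and 2805, 1708 to 1985). Rel, the targeted gene, had signals of 18.6 and 85.2 in REL and 492, 134 and 206 in WT. In such sorted bulk samples, fewer cells of a type and less RNA per cell cannot be told apart. Macrophage and monocyte markers were higher in REL for 10 of 13 genes with no overlap, and Vcam1, C1qb and Csf1r were near the dim level in WT. Their summed signals were 5895 and 6394 in REL and 1275 to 1880 in WT. Adgre1 went the other way without overlap, at 120 and 116 in REL and 154, 435 and 161 in WT, while C1qa and Cd68 overlapped. Germinal centre B cell markers (7 genes) summed to 26809 and 27374 in REL and 27161 to 33994 in WT, and B lineage markers (4 genes) to 31218 and 36522 in REL and 31408 to 38215 in WT. Neutrophil markers summed to 349 and 88.7 in REL and 100 to 1304 in WT, and T cell markers to 802 and 267 in REL and 201 to 483 in WT. Plasma cell markers summed to 5679 and 6587 in REL and 5289 to 7707 in WT. Erythroid markers (3 genes) summed to 109 and 51.6 in REL and 136 to 561 in WT. Of these, Hbb-b2 and Slc4a1 were lower in REL without overlap. Hba-a1, dim on every array, went the other way without overlap, at 12.8 and 12.1 in REL and 1.22, 5.18 and 5.92 in WT. The 5′ probe set of 18S ribosomal RNA read 1671 and 1984 in REL and 293 to 858 in WT. Its 3′ probe set (1194 and 1098 in REL, 718 to 904 in WT) was likewise higher in REL without overlap. So was its middle probe set (11953 and 13417 in REL, 8696 to 9822 in WT). The 3′ over 5′ ratio of Actb was 1.64 and 1.73 in REL and 1.58 to 2.45 in WT. The median deviation of the 11 macrophage genes tested was 3.35 on REL 1 and 2.31 on REL 2. Several of them, such as Vcam1, C1qb, Csf1r and Mrc1, passed the filter on dim signals only through their REL signals. The filter thus shaped the size of these medians, which are description only. The part of any of these in the complex I differences was not tested.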

How the data were processed

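The deposited values are linear intensity signals of 45101 probe sets. The submitters' processing notes name MAS5 but no version of it. Per the labels' protocols, cDNA was made and amplified from small RNA amounts (NuGEN Ovation). Every array had a 2% trimmed mean of 500. Detection calls were not used here, and the array number limits precision. Gene names came from the platform annotation, and the 34945 probe sets with 1 symbol were kept. Signals were transformed as log2(signal + 16), and probe sets in the lowest 40% by mean log2 value (under about 23.1 in signal) were dropped. The brightest probe set of each gene was kept, which left 12082 genes. The linear model had the group as its term and was fitted in R 4.3.3 with limma 3.58.1 (eBayes, trend = TRUE, 3 residual and 6.84 prior degrees of freedom). Tests were two-sided, p-values were adjusted over all genes by the Benjamini-Hochberg method, and an adjusted p under 0.05 counted as a call. Alternatives were other pseudocounts, filters, normalizations and probe set rules, a replicate block and single arrays left out. The code was tested on simulated data in which 200 genes were changed. It called 2.15% of the 2-fold changes and 18.6% of the larger ones, so a gene not called may still differ.

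Members and lists were chosen with earlier results of these data known. Values of every array are given for the 6 core subunits tested, all Ndufaf genes and, among the rest, the 6 with the smallest p below 0 and the 3 above 0. Ndufv3, Ndufab1, Ndufa4 and Ndufa4l2 were added after their values were seen. Genes were assigned to modules from general knowledge. Probe sets with several symbols were left out of the tests and counts of genes. Of the probe sets used 3 end in _x_at and 4 in _s_at, types that can share probes with other transcripts or near-identical copies. The arrays were fitted as unpaired. Deviations of equal-numbered arrays correlated at −0.04 and −0.02. With only 2 REL arrays, whose deviations mirror each other, these values cannot settle whether the replicate numbers pair the arrays. Tables and plots were made in Python 3.11.15 (pandas 2.3.3, numpy 2.4.6, matplotlib 3.10.9).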

Additional observations from a re-analysis of the deposited data

How the results depend on the processing

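Subunits below 0 numbered 22 to 28 of those tested under the 10 alternatives other than leaving out an array, including the added removal of Ndufa4 and Ndufa4l2, chosen after seeing the data, and 24 to 33 when single arrays were left out. With both REL arrays kept, the number of Nduf genes called stayed at 0 under every alternative except 1. The limma fit with the replicate number as a block called 1, Ndufa5 (−0.80, adjusted p = 0.0377). Whether the replicate numbers pair the arrays could not be settled, and WT 3, with no partner, did not enter that difference. Over all genes 1 was called, 0 with a pseudocount of 1 or 64, no filter, a 60% filter, probe sets averaged per gene or no mean-variance trend, 2 with quantile normalization, 3 with median centring, 18 with the replicate block, and 0 to 8 with arrays left out (8 without REL 1, 0 without each single WT array). Median centring moved the median of all genes to 0.10, with the subunit median at −0.051 and that of the assembly factors at −0.031, so their distances from all genes stayed at −0.15 and −0.13. With single arrays left out the subunit median ran from −0.30 to −0.091 and the assembly factor median from −0.27 to −0.06. Ndufv2 turned sign under median centring (0.12) and the replicate block (0.069), and Ndufaf4 (0.086) and Ndufs8 (0.079) under median centring. Leaving out arrays also turned signs, over ranges of −0.29 to 0.19 for Ndufv2, −0.23 to 0.019 for Ndufaf4 and −0.22 to 0.46 for Ndufs3. The ranges were −0.035 to 0.46 for Ndufa8, −0.074 to 0.45 for Ndufb9 and −0.12 to 0.41 for Ndufb1. The cause was not tested. The filter and the brightest probe set were chosen anew in each such fit. Without REL 2 this moved Ndufb9 to another probe set, its usual one giving −0.14, and Ndufa4l2 was dropped.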

Other observations

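Of the 88 single-symbol Nduf probe sets 86 passed the filter on dim signals, and 66 of these lay below 0. Among the 22 genes read by several of them, all probe sets of a gene pointed the same way in 17, and they disagreed in Ndufab1, Ndufaf8, Ndufc2, Ndufs7 and Ndufs8. A further 10 probe sets carried an Nduf symbol together with another gene, and 8 of them lay below 0, with differences from −0.76 to 0.11. Against the order seen in most members, 7 genes had a lower signal on REL 2 than on REL 1, namely Ndufa4, Ndufa6, Ndufa10, Ndufa12, Ndufb6, Ndufaf2 and Ndufaf8.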
